A study of Mus musculus with 48 samples.

Results

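The spleens of mice with severe arthritis were compared with the spleens of mice with mild arthritis. Collagen-induced arthritis (CIA) is a mouse model in which immunization with type II collagen is followed by joint inflammation. The members were the 6 spleen samples of CIA mice, out of 48 samples of 5 organs in the series. From their arthritis scores, S1, S2, and S3 were taken as severe and S5, S6, and S8 as mild. The paper itself grades mild and severe arthritis by the score per limb. All labelled cells of these spleens were used, which was 2313 of the 12096 labelled cells of the series. The severe spleens held 1512 cells and the mild spleens 801. All mice were male DBA1/J aged 8 to 12 weeks, and CIA mice had received bovine type II collagen in complete Freund's adjuvant at the tail base and a booster in incomplete adjuvant on day 20. The total arthritis score, summed over the limbs, was 8 in each severe mouse, 4 to 5 in S5, 3 to 4 in S6, and 2 to 3 in S8. The spleens of 4 healthy mice given PBS, H3, H4, H6, and H7, had a score of 0 and held 1007 labelled cells.

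RNA was counted per cell with Seq-Well, in which single cells are caught with barcoded beads in nanowells. A unique molecular identifier (UMI) tags each transcript, so that copies are counted once. The sample names carry the prefix 2CIA for S1, S2, S3, and H3 and the prefix CIA for all other mice, and the sources used here do not explain it. Severity and prefix therefore cannot be told apart among the CIA mice. By the paper's methods, mice were killed on reaching a set arthritis score or after a fixed time from immunization. Time since immunization may therefore also differ with severity, and healthy mice, which were not immunized, cannot show its effect. H3 was set against H4, H6, and H7 to show how far healthy mice with the same prefixes differ, on a single mouse with the prefix 2CIA. The number of labelled cells ranged from 133 to 911 per spleen and of UMIs from 95313 to 862294, with a median of 560 to 725 UMIs per cell. Mitochondrial transcripts made up 6.95% to 13.4% of the UMIs. No barcode was shared by any pair of spleen libraries, and doublets were not removed here.

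The spleen filters blood in its red pulp and holds B and T cell zones in its white pulp. In mice its red pulp can also make granulocytes and red cells, and this output rises with inflammation. Granulocytes fill their granules in order as they mature. Precursors make the proteins of primary granules, which are myeloperoxidase (Mpo) and the serine proteases elastase (Elane), proteinase 3 (Prtn3), and cathepsin G (Ctsg). Later stages make specific and gelatinase granule proteins such as cathelicidin (Camp) and lactoferrin (Ltf), and mature cells hold much calprotectin, the dimer of S100a8 and S100a9.

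The results turn on these 4 primary granule genes, so the windows around their RefSeq transcription starts are shown. Each runs from 250 bases before to 50 bases after the start, 5′ to 3′ on the gene's strand, in GRCm38.p6. Mpo lies at chr11:87793534-87793833 on the plus strand, Prtn3 at chr10:79879417-79879716 and Elane at chr10:79886062-79886361 on the plus strand, and Ctsg at chr14:56102525-56102824 on the minus strand. Capitals mark AGGAAGT, a purine-rich string that was chosen after these sequences had been seen.
Mpo: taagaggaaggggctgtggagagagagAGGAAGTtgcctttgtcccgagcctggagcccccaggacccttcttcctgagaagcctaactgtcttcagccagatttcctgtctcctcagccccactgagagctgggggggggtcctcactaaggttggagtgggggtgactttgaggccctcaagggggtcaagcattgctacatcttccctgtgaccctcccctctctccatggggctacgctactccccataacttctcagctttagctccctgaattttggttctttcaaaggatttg
Prtn3: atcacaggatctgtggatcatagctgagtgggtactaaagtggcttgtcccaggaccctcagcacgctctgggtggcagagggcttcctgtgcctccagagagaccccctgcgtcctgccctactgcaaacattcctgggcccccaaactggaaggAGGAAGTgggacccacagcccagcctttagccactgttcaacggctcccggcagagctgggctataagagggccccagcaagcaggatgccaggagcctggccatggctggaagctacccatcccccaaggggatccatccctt
Elane: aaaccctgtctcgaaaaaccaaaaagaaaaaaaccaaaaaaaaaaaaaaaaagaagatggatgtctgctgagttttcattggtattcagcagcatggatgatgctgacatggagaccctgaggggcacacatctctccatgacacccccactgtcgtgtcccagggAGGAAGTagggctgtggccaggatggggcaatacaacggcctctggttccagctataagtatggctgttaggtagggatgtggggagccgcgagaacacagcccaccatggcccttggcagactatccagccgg
Ctsg: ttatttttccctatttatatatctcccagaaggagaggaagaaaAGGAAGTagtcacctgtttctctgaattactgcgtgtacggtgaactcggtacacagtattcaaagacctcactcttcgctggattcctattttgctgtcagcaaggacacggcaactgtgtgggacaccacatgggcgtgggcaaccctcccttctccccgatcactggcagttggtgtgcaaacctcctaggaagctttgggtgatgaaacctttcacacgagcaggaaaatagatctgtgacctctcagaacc
The string starts 223 bases before the start of Mpo, 94 before Prtn3, 84 before Elane, and 206 before Ctsg. On either strand it was present in 6 of the 8 genes called between severe and mild spleens (below, all but Pglyrp1 and Cxcl2), in 275 of 2526 windows of the genes tested (10.9%), and in 3072 of all 32851 windows (9.35%). Because the string was chosen from the windows of Mpo, Prtn3, Elane, and Ctsg, their matches were certain. The count of 6 therefore cannot be read as an enrichment over these shares. Among the other called genes, S100a8 and Slfn4 held it and Pglyrp1 and Cxcl2 did not. A match of letters is a description of the sequence and not a binding site.

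The first question was which cells the spleens held. Severe spleens held a smaller share of cells labelled B cells and NK cells and a larger share of cells labelled granulocytes, without overlap between mice. B cells made up 26.4%, 13.9%, and 15.6% of labelled cells in S1, S2, and S3 and 44.8%, 50.3%, and 53.6% in S5, S6, and S8. The means were 18.6% ± 6.77 (SD, n = 3) and 49.6% ± 4.42 (SD, n = 3). Healthy spleens held 37.0% in H3 and 46.6% to 56.2% in the other 3.

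Granulocytes made up 10.5%, 16.1%, and 14.3% of cells in the severe spleens and 1.67%, 3.36%, and 2.05% in the mild spleens, which was 216 cells against 17. Every severe spleen lay above every mild one, with means of 13.6% ± 2.86 (SD, n = 3) and 2.36% ± 0.884 (SD, n = 3). H3 held 2.42% and the other healthy spleens 1.50% or less, with 0 of 217 cells in H7, where the Wilson 95% interval reaches 1.74%. Such intervals cover counting error only. Cells labelled NK cells made up 10.1%, 8.56%, and 5.84% in severe and 23.1%, 17.4%, and 20.8% in mild spleens. Their means were 8.16% ± 2.14 (SD, n = 3) and 20.5% ± 2.85 (SD, n = 3). NK cells are lymphocytes that kill without prior sensitization, but this label also held the T cell receptor genes at the highest level of all labels (below), so NK cells and T cells cannot be told apart in its share.

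For each of these 3 labels the two-sided exact permutation test gave p = 0.1, the smallest p that 3 against 3 mice can give, and an adjusted p of 0.267 over 8 labels. When the numbers of cells were tested with edgeR instead, over all 10 spleens, B cells fell by 1.41 on the log2 scale (SE 0.33, adjusted p = 0.00909), granulocytes rose by 2.59 (SE 0.59, adjusted p = 0.00909), and cells labelled NK cells fell by 1.30 (SE 0.34, adjusted p = 0.0127). No label passed edgeR's threshold between H3 and the other healthy spleens, where B cells had a log2 value of -0.52 and granulocytes of 1.38. No label passed for the severity difference beyond that between prefixes, where the lowest adjusted p was that of NK cells (-1.60, SE 0.57, adjusted p = 0.179).

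The other labels overlapped between severe and mild spleens. Cells labelled dendritic cells were 16.3%, 23.9%, and 9.09% of severe and 2.51%, 9.40%, and 4.78% of mild spleens (exact permutation p = 0.2). Cells labelled T cells were 8.05%, 7.46%, and 29.9% against 8.36%, 0.671%, and 1.37% (exact permutation p = 0.3), with the highest share in S3. Erythrocytes remaining after red cell lysis were 15.4%, 10.9%, and 1.95% against 4.70% to 5.01% (exact permutation p = 0.4). Monocytes averaged 16.1% ± 3.35 (SD, n = 3) in severe and 13.3% ± 0.910 (SD, n = 3) in mild spleens (exact permutation p = 0.3). Macrophages were 11 cells in all severe and 3 in all mild spleens. Shares of a whole depend on each other, and when erythrocytes and granulocytes were left out of the total, B cells were still lower (24.5% against 53.4%), as were NK cells (10.8% against 22.0%). Without them the shares of monocytes, dendritic cells, and T cells also no longer overlapped (exact permutation p = 0.1 and adjusted p = 0.12 each).

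**Figure D1:**
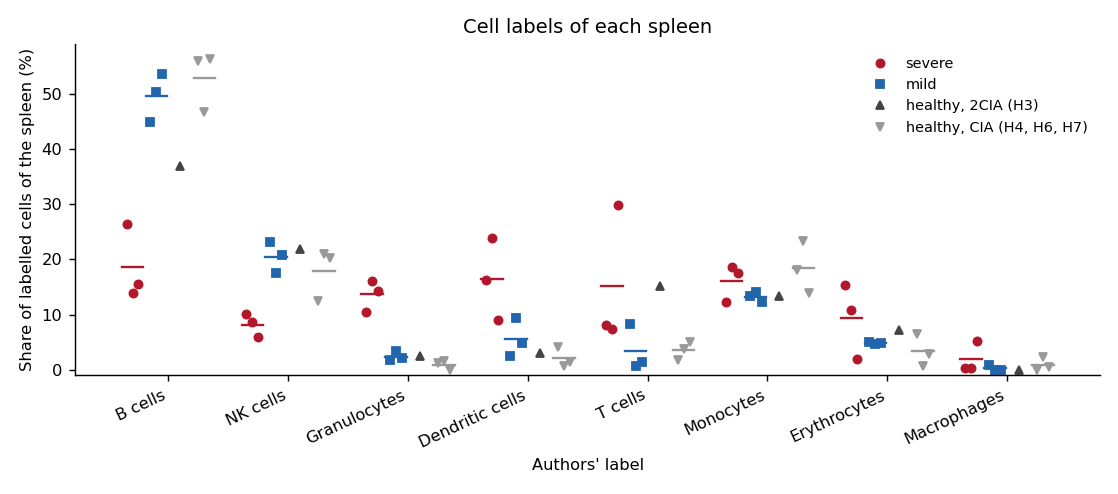
Share of each authors' cell type label among the labelled cells of a spleen, in percent (vertical axis, linear); each point is 1 mouse and each line a group mean. Severe spleens lie below mild spleens for B and NK cells and above them for granulocytes, and H3 lies at 37.0% B cells.

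The labels were checked against marker genes over all 10 spleens, as UMIs of a list per 1000000 UMIs of all genes (CPM). Cells labelled B cells held 5893 CPM of the B cell identity list, cells labelled NK cells 5382 CPM of the NK and cytotoxic list, and cells labelled granulocytes 78720 CPM of the specific and gelatinase granule list. The T cell label did not match its markers. Its leading genes were Mcpt8, Pf4, Prss34, Ctsg, and Mpo, which are genes of basophils, platelets, and granulocyte precursors. It held 683 CPM of the T cell receptor complex list, against 3438 CPM in cells labelled NK cells, the highest of all labels. The T cell markers used by the study likewise stood at 86.3 CPM in the T cell label and at 311.5 CPM in the NK cell label. The leading genes of the NK cell label, such as Gzma, Ccl5, and Klre1, are those of cytotoxic lymphocytes. The dendritic cell label was led by Igkv12-44, Elane, Ctsg, Mpo, Ms4a3, and Retnlg, and its conventional dendritic cell list was at 409 CPM against 1032 CPM in the monocyte label. Genes of immunoglobulin variable regions led the monocyte label, with 9410 CPM of the plasma cell list and 12190 CPM of the classical monocyte list. The T cell, dendritic cell, and monocyte labels are therefore used below only as the authors' names, and the NK cell label as one of NK and T cells together.

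UMIs were then summed over all labelled cells of a spleen and compared by severity. In such sums, fewer cells of a type and less RNA per cell cannot be told apart. Gene levels are given in CPM of the tested genes, scaled by TMM factors, and log2 fold changes compare severe with mild spleens. Of 3309 genes tested with edgeR, 8 were called (0.242%), all higher in severe spleens. They were the primary granule genes Mpo, Prtn3, Elane, and Ctsg, the calprotectin subunit S100a8, and Pglyrp1, Cxcl2, and Slfn4. At an unadjusted p under 0.05, 280 genes were higher and 350 lower, and the median log2 fold change of all genes was 0.11.

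Mpo, whose product makes hypochlorous acid, is at chr11:87793581-87804413. Its level was 207, 276, and 200 CPM in S1, S2, and S3 and 7.75, 0, and 5.51 CPM in S5, S6, and S8. In healthy mice it was 43.4 CPM in H3 and 62.2, 23.5, and 0 CPM in H4, H6, and H7. The severe spleens were above all others. The log2 fold change was 5.29 (SE 0.83, adjusted p = 0.0286), but it rests on 3 UMIs in mild spleens against 247 in severe ones, so it depends on the prior count. The ratio of the UMI shares was 37.6, with a counting interval of 12.7 to 184.

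Prtn3 (chr10:79874476-79883174), which codes for proteinase 3, stood at 196, 334, and 311 CPM in severe and 3.87, 8.82, and 0 CPM in mild spleens. Its healthy levels were 32.6 CPM in H3 and 49.1, 0, and 0 CPM in the others. The groups did not overlap, and the log2 fold change was 6.05 (SE 0.95, adjusted p = 0.0286). Mild spleens held 2 UMIs against 289, a ratio of 66.0 with a counting interval of 18.1 to 548.

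Ctsg (chr14:56099881-56102574), which codes for cathepsin G, stood at 112, 155, and 156 CPM in severe and 0, 0, and 5.51 CPM in mild spleens. In healthy mice it reached 76.0 CPM in H3 and 13.1, 0, and 0 CPM in the others. H3 lay below the severe and above the mild spleens. The log2 fold change was 5.87 (SE 0.93, adjusted p = 0.0286), on 1 UMI in mild spleens against 141, a ratio of 64.4 with a counting interval of 11.4 to 2563.

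Elane (chr10:79886247-79888215), which codes for neutrophil elastase, was at 152, 579, and 645 CPM in severe spleens and 34.9, 0, and 0 CPM in mild ones. It was at 109 CPM in H3 and 16.4, 11.7, and 0 CPM in the other healthy spleens. S5 held all 9 UMIs of the mild group against 455 in severe spleens, a ratio of 23.1 with a counting interval of 12.1 to 50.9, and the log2 fold change was 4.87 (SE 0.87, adjusted p = 0.0473). Leaving out 1 mouse moved it between 4.36 and 9.59, the highest value being that without S5, where no UMI is left in mild spleens, the value depends on the prior count, and the call is lost. Left out of the mild sums were cells of S5 without a label, which held 48 UMIs of Elane in 3 cells (42 of them in 1 cell), 10 of Mpo in 2 cells, 15 of Prtn3 in 2 cells, and 16 of Ctsg in 2 cells. When all spleen cells were summed, with or without a label, Mpo had a log2 fold change of 3.52 (edgeR adjusted p = 0.0893), Prtn3 of 3.44 (0.111), Ctsg of 2.44 (0.145), and Elane of 2.52 (0.213), so none of these 4 was called. S100a8 and Pglyrp1 were the only genes called there.

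The 4 transcripts were spread over many cells of each severe spleen. Cells with at least 1 UMI of any of them numbered 50 of 447 in S1 (11.2%, Wilson 95% interval 8.59 to 14.4), 142 of 911 in S2 (15.6%, 13.4 to 18.1), and 22 of 154 in S3 (14.3%, 9.63 to 20.7). In mild spleens they numbered 12 of 359 in S5 (3.34%, 1.92 to 5.75), 1 of 149 in S6 (0.671%, 0.119 to 3.70), and 1 of 293 in S8 (0.341%, 0.0603 to 1.91). Healthy spleens had 7 of 165 in H3 (4.24%), 3 in H4, 2 in H6, and 0 in H7. The intervals of the severe spleens did not meet those of the mild ones. The 4 genes had been called in sums of these same cells, so this separation adds no support. The intervals cover counting error within a mouse only, and cells without a label were left out. With at least 2 of the 4 genes in the same cell, the numbers were 20, 59, and 14 in severe spleens, 0, 0, and 1 in mild spleens, and 3, 3, 0, and 0 in H3, H4, H6, and H7.

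Most of these cells had labels other than granulocytes. In severe spleens they were 49 of 150 cells labelled T cells (32.7%), 70 of 305 labelled dendritic cells (22.9%), 42 of 216 labelled granulocytes (19.4%), and 34 of 251 labelled monocytes (13.5%). Among cells labelled B cells they were 4 of 269 (1.49%), and among NK cells 2 of 132 (1.52%), labels whose cells should lack these genes. Of the 247 UMIs of Mpo in severe spleens, 101 were in cells labelled dendritic cells and 93 in cells labelled T cells, and 21 in granulocytes. Elane had 232 of 455 UMIs in dendritic cells and 116 in granulocytes. Without the cells labelled erythrocytes and granulocytes, Ctsg (log2 fold change 5.95, adjusted p = 0.0382) and Mpo (5.25, adjusted p = 0.0453) were still called by edgeR.

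For the other called genes, cells labelled granulocytes held more UMIs than any other label in severe spleens. S100a8 (chr3:90668978-90670035), a subunit of calprotectin, stood at 61146, 114272, and 76452 CPM in S1, S2, and S3, at 13539, 19177, and 20639 CPM in S5, S6, and S8, and at 18200, 5579, 3885, and 2555 CPM in H3, H4, H6, and H7. Severe spleens were above all others, and H3 was as high as the mild spleens. The log2 fold change was 2.24 (SE 0.33, adjusted p = 0.0286), and cells labelled granulocytes held 66030 of the 94401 UMIs in severe spleens. S100a9, the other subunit, was at 27975, 52104, and 27114 CPM in severe and 6107, 9041, and 6724 CPM in mild spleens, and its log2 fold change of 2.29 (SE 0.44) did not pass (adjusted p = 0.0672).

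Pglyrp1 (chr7:18871331-18890459), a granule protein that binds bacterial peptidoglycan, was at 237, 474, and 278 CPM in severe, 62.0, 70.6, and 77.2 CPM in mild, and 119, 36.0, 23.5, and 45.5 CPM in healthy spleens. Its log2 fold change was 2.25 (SE 0.38, adjusted p = 0.0373), without overlap. Cxcl2 (chr5:90903871-90905938), a chemokine that draws neutrophils, was at 430, 693, and 678 CPM in severe, 147, 61.7, and 143 CPM in mild, and 65.2, 111, 46.9, and 106 CPM in healthy spleens, with H3 among the lowest. It rose by 2.31 (SE 0.41, adjusted p = 0.0473). Slfn4 (chr11:83175186-83190216), a Schlafen family gene of myeloid cells, was at 227, 242, and 122 CPM in severe, 38.7, 26.5, and 16.5 CPM in mild, and 10.9, 9.82, 11.7, and 0 CPM in healthy spleens. It rose by 2.83 (SE 0.51, adjusted p = 0.0473). Granulocytes held 244 of 609 UMIs of Cxcl2 and 106 of 225 of Slfn4 in severe spleens.

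All 8 genes were also among the 93 that DESeq2 called (2.81%) and were called when the 6 CIA spleens were fitted alone. None was called with plain library sizes, or when S2, S5, S6, or S8 was left out, although each kept a higher level in severe spleens in these fits.

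**Figure D2:**
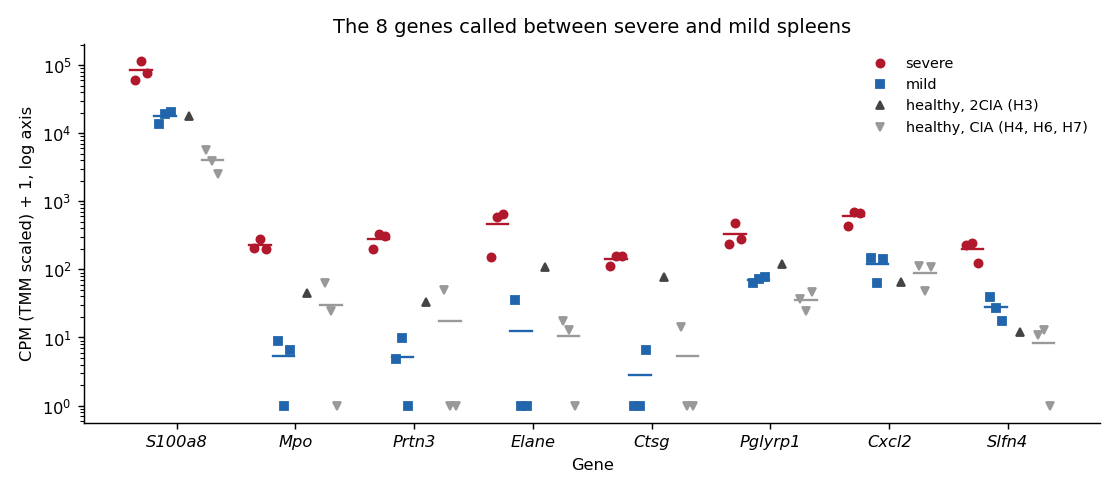
Level of the 8 called genes in each spleen, as CPM of the tested genes scaled by TMM, plus 1, on a log axis; each point is 1 mouse, each line the group mean, and a point at 1 is a mouse with no UMI. Mpo, Prtn3, Elane, and Ctsg lie between 0 and 34.9 CPM in mild and from 112 to 645 CPM in severe spleens.

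The granule genes were then taken as lists, ordered by stage. Because sums without overlap between 3 and 3 mice were common (15.4% of all tested genes higher and 14.7% lower), list counts are read beside these shares. Of the primary granule and precursor list, 6 of 10 genes were tested, 5 were higher in every severe spleen, and 4 were called, with a median log2 fold change of 5.08. The other gene without overlap was Fcnb, a lectin of granulocyte precursors, at 149, 785, and 823 CPM against 50.4, 88.2, and 99.2 CPM (2.89, SE 0.67, adjusted p = 0.0962).

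Of the specific and gelatinase granule list, 9 of 14 genes were tested, 6 were higher without overlap, and none was called, with a median of 1.98. Camp, the cathelicidin precursor, was at 5009, 11317, and 3869 CPM in severe and 1035, 2188, and 1918 CPM in mild spleens (1.98, SE 0.51, adjusted p = 0.105). Ngp, a granule protein related to cystatins, was at 3190, 8035, and 4102 CPM against 794, 1861, and 1190 CPM (2.00, adjusted p = 0.151). Lcn2, which binds bacterial siderophores, was at 606, 1579, and 500.3 CPM against 147, 265, and 132 CPM (2.34, adjusted p = 0.109). S2 had the highest level of each of these 3.

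Of the mature granulocyte list, 7 of 15 genes were tested, 6 were higher without overlap, and S100a8 was called, with a median of 2.40. G0s2, an inhibitor of triglyceride lipase, was at 77.9, 115, and 256 CPM in severe and 15.5, 8.82, and 5.51 CPM in mild spleens (3.66, adjusted p = 0.0689). Retnlg, a resistin-like protein, was at 637, 1071, and 200.1 CPM against 108, 97.0, and 110 CPM (2.61, adjusted p = 0.103). The median between H3 and the other healthy spleens, which rests on 1 mouse, was 1.59 for the primary, 1.35 for the specific, and 1.37 for the mature list. Fitted on the 6 CIA spleens alone, edgeR called 6 of 7 tested genes of the primary list, 7 of 10 of the specific list, and 6 of 7 of the mature list, all higher.

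The summed levels, in CPM of all genes without TMM scaling, were higher in every severe than in every mild spleen for these 3 lists. The mature list summed to 70211, 118710, and 87337 CPM in severe and 18324, 24180, and 24785 CPM in mild spleens. H3 was at 20154 CPM and the other healthy spleens at 3396 to 7043 CPM. S100a8 and S100a9 made up nearly all of the mature list's sum in severe and mild spleens, so this sum says little about its other genes. The specific list summed to 11915, 24845, and 14562 CPM in severe and 4457, 10013, and 6424 CPM in mild spleens. The primary list summed to 1563, 2949, and 3645 CPM against 1494, 934, and 1334 CPM, so S1 lay just above S5. This list also holds Srgn, a granule proteoglycan of many blood cells, whose own log2 fold change was 0.30 with overlap.

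**Figure D3:**
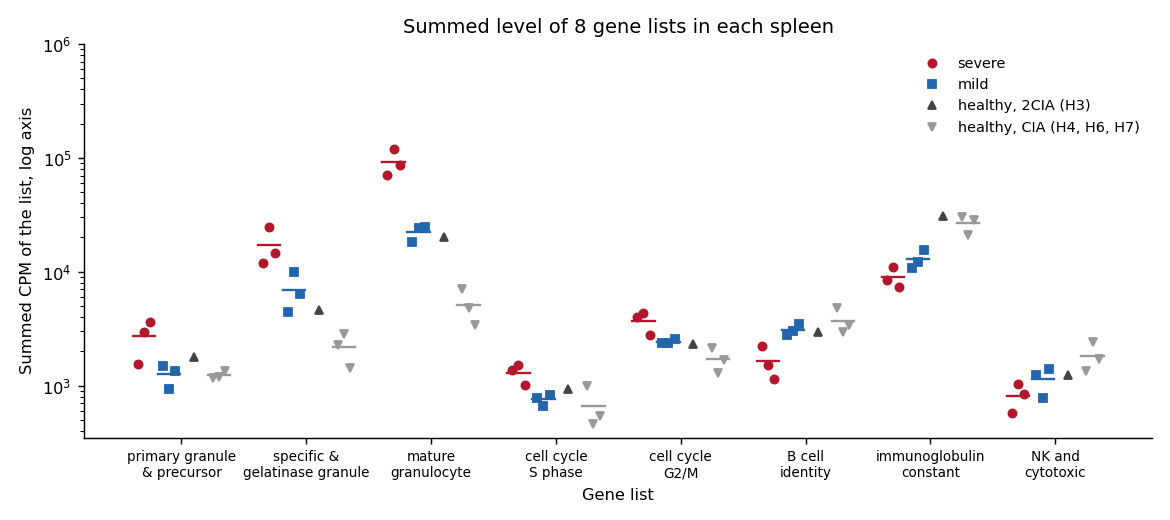
Summed level of 8 gene lists in each spleen, in CPM of all genes on a log axis; each point is 1 mouse and each line a group mean. The mature granulocyte list, nearly all of it S100a8 and S100a9, lies at 70211 to 118710 CPM in severe and 18324 to 24785 CPM in mild spleens. The B cell identity list lies lower in severe spleens.

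Other genes of myeloid and dividing cells were higher without being called. All 7 tested genes of the S100 list had a positive log2 fold change, 5 of them without overlap, with S100a8 called and a median of 0.95. S100a6 was at 884, 1165, and 978 CPM against 469, 344, and 325 CPM (1.41, SE 0.28, adjusted p = 0.0672). Of the complement and acute phase list, 4 of 12 genes were tested and 3 did not overlap, with a median of 2.06. Its haptoglobin gene Hp, which binds free haemoglobin, was at 586, 1081, and 511 CPM against 155, 362, and 138 CPM (1.78, SE 0.51, adjusted p = 0.126). The haemoglobin list had 0 of 7 genes without overlap. Hbb-bs, an adult beta globin, was at 71994, 78775, and 11495 CPM in severe and 21576 to 24673 CPM in mild spleens, so that S3 lay below all mild spleens.

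Of the S phase list, 8 of 18 genes were tested, all 8 had a positive value, and 3 did not overlap, with a median of 1.06. Pclaf, which binds the replication clamp, was at 454, 518, and 434 CPM in severe and 174, 52.9, and 105 CPM in mild spleens (2.03, SE 0.47, adjusted p = 0.0975), but it was also at 391 CPM in H3 against 46.9 to 154 CPM in the other healthy spleens. Pcna, the clamp itself, was at 244, 291, and 233 CPM against 128, 97.0, and 143 CPM (1.05, SE 0.32, adjusted p = 0.131), with H3 at 141 CPM. Tyms, thymidylate synthase, was at 152, 135, and 66.7 CPM against 19.4, 35.3, and 27.6 CPM (2.22, adjusted p = 0.161). The G2M list had 4 of 12 tested genes without overlap, all higher, with a median of 0.88, and Mki67, a marker of dividing cells, was at 616, 612, and 88.9 CPM against 322, 494, and 281 CPM, with overlap. Over all 10 spleens, cells labelled erythrocytes held most of both lists per UMI, at 4018 CPM (S phase) and 9373 CPM (G2M). Cells labelled granulocytes held 808 and 4709 CPM. Genes of oxidative phosphorylation had 19 of 35 without overlap, all higher, with a median of 0.64, and the same list had a median of 0.62 between H3 and the other healthy spleens. Lists that follow RNA quality had positive medians, but only the mitochondrially encoded one lay apart in its sums. The share of all mitochondrial transcripts overlapped. It was 10.1%, 7.95%, and 9.50% of UMIs in S1, S2, and S3 and 8.63%, 12.7%, and 6.95% in S5, S6, and S8. Mitochondrially encoded mRNAs had 7 of 7 tested genes with a positive value, 3 without overlap, and a median of 0.77 (0.82 within B cells, 1.15 within the NK cell label), and they summed to 4510 to 7377 CPM of all genes in severe, 3706 to 4282 CPM in mild, and 4847 to 7517 CPM in healthy spleens. Nuclear retained RNAs had 3 of 3 positive, 0 without overlap, and a median of 0.55, with sums that overlapped. The part of RNA quality in the lists above was not tested.

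No gene of the lymphocyte lists was called in the main edgeR fit with all mice, and the lists of B cells lay lower in severe spleens. Of the B cell identity list, 14 of 15 genes were tested, 13 had a negative value, and 5 were lower without overlap, with a median log2 fold change of -0.61. Cd79a, the signalling subunit of the B cell receptor, was at 183, 240, and 100.1 CPM in severe and 364, 326, and 364 CPM in mild spleens (-0.96, SE 0.37, adjusted p = 0.205). Ms4a1, which codes for CD20, was at 335, 291, and 233 CPM against 341, 529, and 761 CPM (-0.91, SE 0.37, adjusted p = 0.218), with S1 just below S5. Fitted on the 6 CIA spleens alone, edgeR called 1 of 14 tested genes of this list, Ly6d, a surface protein of B cells and plasmacytoid dendritic cells (-1.12, SE 0.31, adjusted p = 0.0408). The list summed to 1153 to 2243 CPM in severe and 2786 to 3468 CPM in mild spleens. Its median between H3 and the other healthy spleens was -0.54.

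The MHC class II list, whose genes present peptides to CD4 T cells, had 10 of 10 tested genes with a negative value, 2 of them without overlap, and a median of -0.39. Its median was -0.75 between H3 and the other healthy spleens. H2-Eb1 was at 74.5, 79.0, and 44.5 CPM in severe and 120.1, 123, and 138 CPM in mild spleens (-0.86, SE 0.35, adjusted p = 0.221), with H3 at 65.2 CPM. Of the immunoglobulin constant region list 2 of 9 tested genes were lower without overlap, the lambda chain genes Iglc2 (-1.08, adjusted p = 0.150) and Iglc3 (-1.27, adjusted p = 0.0901). In the 6 CIA spleens alone both were called, at -1.16 (adjusted p = 0.0174) and -1.35 (adjusted p = 0.0165), out of 7 tested. Iglc2 was at 925, 936, and 845 CPM against 1581, 1826, and 2331 CPM. The lambda genes are near-identical copies, so how reads were split between them is uncertain. Ltb, the lymphotoxin beta that shapes B cell follicles, was at 217, 189, and 66.7 CPM against 306, 582, and 513 CPM (-1.48, SE 0.40, adjusted p = 0.116).

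The NK and cytotoxic list had 7 of 16 genes tested, 6 with a negative value, and a median of -0.48. Its only gene without overlap was Ccl3, a chemokine also made by myeloid cells, which was higher in severe spleens (1.51, SE 0.68, adjusted p = 0.256). The T cell receptor complex list had a median of -0.07, with 2 of 7 tested genes lower without overlap, the kinase gene Lck, at 55.6 to 64.4 CPM against 112 to 143 CPM (adjusted p = 0.232), and Cd3g, a receptor subunit (-0.71, adjusted p = 0.298). The interferon response list had 0 of 12 tested genes without overlap and a median of 0.13. Il1b and Tnf, inflammatory cytokines that the study follows as regulators, were not called. Il1b was at 54.2, 107, and 66.7 CPM in severe and 69.7, 123, and 16.5 CPM in mild spleens, with overlap (0.24, SE 0.63, adjusted p = 0.878). Tnf was at 108, 93.8, and 33.4 CPM against 31.0, 35.3, and 49.6 CPM, again with overlap (1.12, SE 0.50, adjusted p = 0.251).

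Counts were next summed within a label, which removes the share of that label from the comparison. Few genes were called within labels, and S100a8 and S100a9 led them. Within cells labelled B cells, 2 of 1486 genes were called (0.135%), S100a8 (2.43, SE 0.36, adjusted p = 0.0073) and S100a9 (2.59, SE 0.46, adjusted p = 0.0299). The same pair was called within monocytes, 2 of 534 genes (0.375%), with 2.66 (SE 0.34, adjusted p = 0.00509) and 2.53 (SE 0.42, adjusted p = 0.0242). Within NK cells, tested with at least 5 cells per mouse, S100a8 alone was called among 513 genes (0.195%), at 2.49 (SE 0.33, adjusted p = 0.00164), and DESeq2 called S100a8 and S100a9 (0.39%).

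The levels of S100a8 in these labels are given in CPM of all UMIs of the label. In cells labelled B cells they were 7824, 6394, and 16458 CPM in severe, 2163, 2181, and 1533 CPM in mild, and 559 to 1009 CPM in healthy spleens. In NK cells they were 8118, 7892, and 19110 CPM against 2203, 2173, and 1845 CPM, and in monocytes 10698, 12122, and 17972 CPM against 2027, 1964, and 2213 CPM. Within each spleen the levels in B and NK cells were close, and lymphocytes of either label should lack the gene. Cells labelled granulocytes held 238340, 269780, and 267070 CPM in severe and 297430, 194290, and 360290 CPM in mild spleens. There the groups overlapped, S100a8 had a log2 fold change of -0.29 (SE 0.24, adjusted p = 0.757), and 0 of 96 genes were called by edgeR, with 9 at an unadjusted p under 0.05. In severe spleens the UMIs of S100a8 per UMI of S100a9 were 3.02 in B cells, 3.40 in NK cells, 2.51 in monocytes, and 2.21 in granulocytes. Over all labels, cells with at least 1 UMI of S100a8 numbered 446 of 447 in S1, 892 of 911 in S2, and 152 of 154 in S3. They numbered 271 of 359 in S5, 116 of 149 in S6, and 158 of 293 in S8. In healthy spleens they numbered 61 of 165 in H3, 96 of 492 in H4, 37 of 133 in H6, and 83 of 217 in H7. The part of free RNA or doublets in these values was not tested.

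The specific and gelatinase granule genes did not show a higher level within cells labelled granulocytes, of which mild spleens held only 17. All 9 tested genes of the specific and gelatinase granule list had negative values there, 4 of them without overlap, with a median of -0.52 beside 0.11 for all genes. Among all 96 genes tested, 10.4% were higher and 7.29% lower without overlap. Ngp was at 24035, 31476, and 27125 CPM in severe and 40328, 39075, and 39424 CPM in mild spleens, scaled by TMM (-0.52, SE 0.23, adjusted p = 0.463). Camp was at 37705, 43022, and 24485 CPM against 48181, 44072, and 63002 CPM (-0.56, SE 0.29, adjusted p = 0.530). S100a6 had the opposite direction, at 1878, 1789, and 637 CPM against 212, 227, and 0 CPM (3.33, SE 0.96, adjusted p = 0.292). So did Retnlg of the mature list, with overlap, at 3339, 2633, and 455 CPM against 637, 454, and 193 CPM (2.36, SE 0.86, edgeR adjusted p = 0.463). The other 2 tested genes of the mature list, S100a8 and S100a9, had negative values. None of these genes was called.

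**Figure D4:**
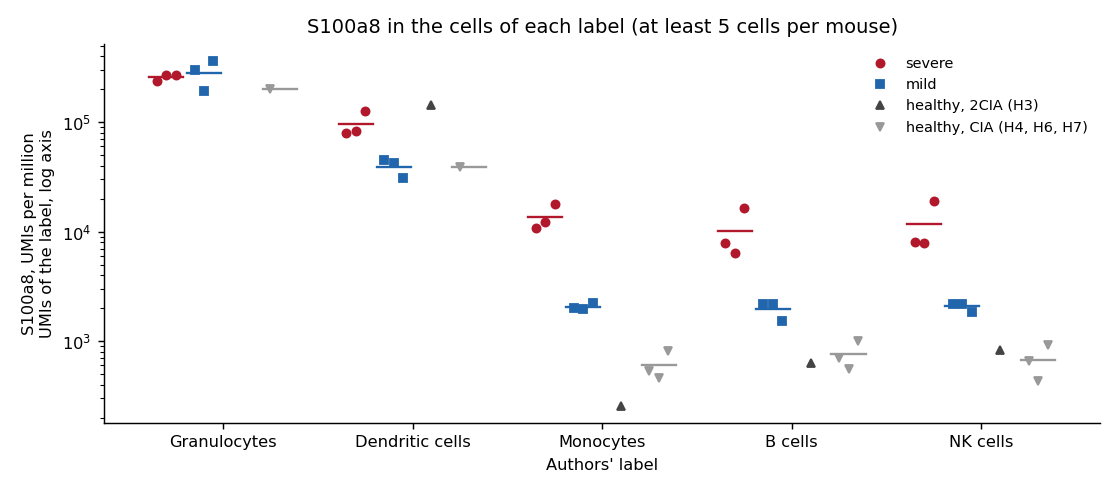
Level of S100a8 in the cells of 5 labels, in UMIs per 1000000 UMIs of the label on a log axis, for mice with at least 5 such cells; each point is 1 mouse and each line a group mean. Severe and mild spleens overlap in granulocytes and lie apart in the other 4 labels, and in B cells, monocytes, and NK cells the healthy spleens lie lowest.

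Within their own label, most genes of B cells had positive values. The B cell identity list had 10 positive and 4 negative values among 14 tested genes and a median of 0.40, beside 0.06 for all genes. The MHC class II list had 10 of 10 positive values and a median of 0.40, with 2 genes higher without overlap, beside 8.08% of all genes higher and 15.1% lower without overlap within this label. Cd79a had a log2 fold change of -0.06 within B cells. After S100a8 and S100a9, the lowest p-values were those of 7 processed pseudogenes or predicted genes and of mt-Co1, a mitochondrial subunit of cytochrome oxidase (1.20, adjusted p = 0.313). The pseudogenes all had negative values, such as Rpl13-ps5 (-3.24, adjusted p = 0.185). In monocytes the genes next in order included Mrpl33, a mitochondrial ribosomal protein (1.14, adjusted p = 0.208), Nme1, a nucleoside diphosphate kinase (1.80), Cox6a1, a cytochrome oxidase subunit (1.24), and Lyz1, a lysozyme (-3.20, adjusted p = 0.279).

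Within cells labelled dendritic cells, tested with at least 5 cells per mouse, 5 of 121 genes were called (4.13%). The granule genes Camp (1.72, adjusted p = 0.0342) and Ngp (2.03, adjusted p = 0.0362) and the WAP domain gene Wfdc21 (2.29, adjusted p = 0.0297) rose (2.48% of genes called higher). Wfdc21 was at 3028, 2974, and 2956 CPM in severe and 248, 479, and 1030 CPM in mild spleens. The globin genes Hba-ps4 (-4.37, adjusted p = 0.0297) and Hbb-bh1 (-2.76, adjusted p = 0.0342) fell (1.65% called lower). S100a8 was not called there by edgeR (1.04, adjusted p = 0.173). DESeq2 called 12 of the 121 genes (9.92%), 9 higher and 3 lower, with S100a8, S100a9, Elane, and Fcnb among the higher ones, and S100a8 as its 1 call (0.826%) between H3 and the other healthy spleens. The genes of this label do not match its name, so a change per cell and a change in which cells carry the label cannot be told apart.

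H3 against H4, H6, and H7 was the check on the prefix. Of 3309 genes, 0 were called by edgeR (0%), with 179 at an unadjusted p under 0.05, and DESeq2 also called 0. S100a8 had the lowest p, with a log2 value of 2.18 (SE 0.41, adjusted p = 0.506), about the size of its difference between severe and mild spleens. The next in order included Rps27l, a ribosomal protein-like gene (2.21), and Atp5o, a subunit of ATP synthase (1.48). The difference of differences was 0.06 for S100a8 (SE 0.56, adjusted p = 0.986). The same values between H3 and the others were 0.34 for Mpo, 0.44 for Prtn3, 3.33 for Ctsg, 3.25 for Elane, 1.71 for Pglyrp1, -0.50 for Cxcl2, and 0.50 for Slfn4. In H4, a single cell held 15 of the 19 UMIs of Mpo, and a single cell held 13 of the 15 of Prtn3. The low values of Mpo and Prtn3 therefore rest largely on single cells of H4.

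With the difference between healthy mice taken off, 0 of 3309 genes were called by edgeR (0%), with 141 at an unadjusted p under 0.05, and DESeq2 also called 0. Mpo (4.95, SE 1.45), Prtn3 (5.61, SE 1.70), and Cxcl2 (2.81, SE 0.84) had an adjusted p of 0.901 each. The genes with the lowest p included Ldha, lactate dehydrogenase A (2.99), Cd82, a tetraspanin (4.04), and Sgk1, a stress-induced kinase (3.25), each with an adjusted p of 0.901. A single healthy mouse carries the prefix 2CIA, so these tests can show only large differences.

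**Figure D5:**
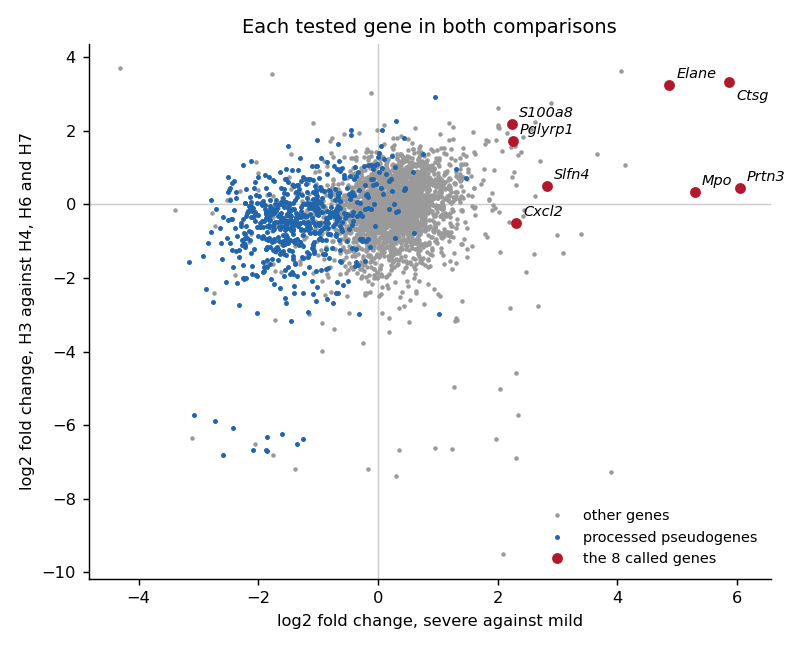
Log2 fold change of each of 3309 tested genes in the whole spleen, severe against mild on the horizontal and H3 against H4, H6, and H7 on the vertical axis, with the 8 called genes in red and processed pseudogenes in blue. Mpo, Prtn3, Slfn4, and Cxcl2 lie near 0 on the vertical axis, where Mpo and Prtn3 rest largely on single cells of H4. S100a8, Pglyrp1, Ctsg, and Elane lie above 1.5, and most processed pseudogenes lie left of 0.

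A second pattern separated severe from mild spleens. Processed pseudogenes, retrotransposed copies of mRNAs, took 8.10%, 5.14%, and 12.9% of the UMIs in S1, S2, and S3 and 18.0%, 19.1%, and 18.3% in S5, S6, and S8. They took 10.2% in H3 and 4.74%, 19.4%, and 15.4% in H4, H6, and H7, so healthy spleens of the prefix CIA spanned the range of the others. Of 613 tested, 352 were lower without overlap and 5 higher, with a median log2 fold change of -1.35, against 0.28 for 2473 protein-coding genes. The shift was also present within cells labelled B cells, at 10.1%, 8.26%, and 15.8% in severe and 20.3%, 22.7%, and 21.2% in mild spleens. These copies are nearly identical to their parent genes, so how reads were assigned to either is uncertain and its part in the shift was not tested.

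The number of calls turned on these genes and on the healthy mice. Fitted alone, the 6 CIA spleens gave 375 called genes of 3664 (10.2%), 87 higher (2.37%) and 288 lower (7.86%), and 249 of the lower ones were processed pseudogenes. All 8 genes above were among the higher ones. When processed pseudogenes were left out, 95 genes (3.33%) were called in the 6 CIA spleens (51 higher, 44 lower) and 21 (0.813%) with all mice (16 higher, 5 lower). The 5 lower genes were Iglc3, Iglj3, Ltb, Rpl13a, and Gm9844, which are named after their values were seen. Of the 375 calls, 329 were tested with all mice, 324 of them had an unadjusted p under 0.05 there, and 0 had the opposite direction.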

How the data were processed

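Single-cell RNA of mouse spleen was measured with Seq-Well in 6 CIA mice (3 severe, 3 mild) and 4 healthy mice. The authors made fastq files with bcl2fastq, aligned reads with STAR to GRCm38, used Picard and the Drop-seq tools, and deposited raw UMI counts, a whole number for each gene in each cell. The submitters' processing notes also list GRCh38 and mm9, without a role. Cells had at least 400 transcripts and 200 genes and under 20% mitochondrial transcripts, and the stated upper limit was 6000 UMIs. Labels of cell type are the authors', made from denoised counts, reference profiles, clusters, and markers. The 9524 cell columns of 38 samples of other organs were not used. Spleen tissue had been cryopreserved, thawed, strained, and treated to lyse red cells.

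UMI counts of labelled cells were summed per mouse, over the spleen or over a label with at least 10 cells per mouse, and tested by quasi-likelihood in edgeR 4.0.16 (R 4.3.3; TMM factors, filterByExpr on severity, 10 spleens in 4 groups, Benjamini-Hochberg threshold 0.05). Labels with fewer cells were tested with at least 5 cells per mouse, as an alternative. SE is the log2 fold change over the root of the F statistic. H3 is a group of 1, assumed to vary like the others. Shares were compared by two-sided exact permutation. Each sample is 1 mouse, so p-values measure the spread between mice. DESeq2 1.42.0, other scalings and filters, the 6 CIA spleens alone, and leaving out each mouse were alternatives. Python 3.11.15 with numpy 2.4.6, pandas 2.3.3, scipy 1.17.1, and matplotlib 3.10.9 did the rest.

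The mice compared, the gene lists, and the tests were chosen with earlier results of these data known. Genes were named by a rule: the 12 largest changes in each direction among called genes without overlap, the 5 largest in each direction within a label, called members of the lists, up to 10 genes with the lowest p where fewer than 5 were called, and Il1b and Tnf. Other list members serve as examples and were chosen with values known. Alternatives without processed pseudogenes, without cells labelled dendritic cells, erythrocytes, and granulocytes, and leaving out mice among the 6 CIA spleens were added after seeing the data. Promoter windows are from RefSeq (GRCm38.p6), and gene positions from the GRCm38 annotation. In data simulated for severe against mild spleens, edgeR recovered 96.5% of 200 genes set to change by 3 on the log2 scale, out of 3309 genes, with 1.53% of its calls wrong. The simulated spread followed a gene's level alone, and no prefix or pseudogene difference was put in. These figures are therefore not the power or error rate of the calls in the real data.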

Additional observations from a re-analysis of the deposited data

Results flagged for a closer look

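In 19 sets of values from the 4 healthy spleens, 4 had 1 mouse far from the other 3, and chance alone sets apart about 1 set in 20. The share of cells labelled NK cells was 12.4% in H4, against 20.3% to 21.8% in the other healthy spleens. Il1b was highest in H4, at 160.4 CPM. Elane was highest in H3, at 108.6 CPM. Slfn4 was at 0 CPM in H7, against 9.82 to 11.7 CPM in the others.

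Spleen cells without a label enter only the sums over all spleen cells. Of the 3 granulocyte genes looked at in them, S100a8 was above healthy mice only in severe mice, Elane only in mild mice, and Mpo in both. In CPM of all genes, S100a8 was at 81830 in the unlabelled cells of severe mice, against 4389 in mild and 5904 in healthy mice. Mpo was at 106.3 in severe and 146.3 in mild mice against 10.6 in healthy mice, on 8, 10, and 1 UMIs. Elane was at 702.2 in mild mice, all of it in S5, against 0 in severe and 21.2 in healthy mice.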

How the results depend on the processing

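No paired analysis was possible because severe and mild spleens share no mouse number. Severe against mild spleens, with 8 genes called, gave 93 (48 higher, 45 lower) with DESeq2, 5 with RLE factors, 0 with plain library sizes (593 at an unadjusted p under 0.05 in edgeR), 261 (96 higher, 165 lower) without a filter, 375 (87, 288) in the 6 CIA spleens alone, 2 without erythrocytes and granulocytes, 2 with all spleen cells, 0 with equal weight of cell types, 1 without dendritic cells, erythrocytes, and granulocytes (S100a8), 21 (16, 5) without processed pseudogenes, and 95 (51, 44) with both that and the 6 CIA spleens alone. Plain library sizes moved the median of all genes from 0.11 to -0.14. Leaving out 1 mouse gave 0 to 376, with 0 without S2, S5, S6, or S8 and 376 (110 higher, 266 lower) without H4, and within the 6 CIA spleens 254 without S1, 60 without S2, 819 without S3, 129 without S5, 15 without S6, and 91 without S8. Without a filter, 22 genes were called for H3 against the other healthy spleens and 17 for the difference beyond the prefix, and otherwise 0 in the alternatives run.

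Within B cells, 2 calls became 1 with plain library sizes, 8 without a filter, 77 in the 6 CIA spleens alone, and 0 to 84 leaving out 1 mouse. Within monocytes they became 26, 6, and 0 to 9 without a filter, in the 6 CIA spleens alone, and leaving out 1 mouse. With DESeq2, 5 calls within dendritic cells became 12 and 1 within NK cells became 2. In edgeR the log2 changes of cell numbers were -1.41 (B cells), 2.59 (granulocytes), and -1.30 (NK cells), past the threshold that exact permutation cannot reach. The difference in macrophage share ranged from -0.0569 percentage points (without S3) to 2.43 leaving out 1 mouse.

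Of single genes, Elane moved from 4.87 to 9.59 without S5, and Pglyrp1 turned to -0.60 and the H3 value of S100a8 to -0.18 with equal weight of cell types. Il1b turned to -0.71 with equal weight, -0.027 with plain library sizes, -0.17 without S2, -0.23 without S8 (0.79 at most leaving out 1 mouse), -0.18 without dendritic cells, erythrocytes, and granulocytes, -0.0096 without processed pseudogenes, and in the 6 CIA spleens alone to -0.20 without S2, -0.24 without S8, and -0.000947 without processed pseudogenes. Over the genes named by rule, 807 values kept direction and side of the threshold, 100 fell below it, and 32 passed it. Most of these genes were not called in the main fit, so their values could not fall below it. Of the 8 called genes, 8 were called with DESeq2 and in the 6 CIA spleens alone. With RLE factors 5 of them were called, with all spleen cells 2, and with equal weight of cell types 0. The cause was not tested. Depth limits the mild values of Mpo, Prtn3, and Ctsg, at 1 to 3 UMIs in all.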

Other observations

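Some other lists were not part of a comparison above. The summed levels of the plasmacytoid dendritic cell and red pulp macrophage lists lay apart, as did those of several lists above and of further lists. The plasmacytoid dendritic cell list, with Siglech and Ly6d, summed to 530 to 607 CPM of all genes in severe and 887 to 1323 CPM in mild spleens. Ly6d is also in the B cell identity list, so these lists are not separate. The red pulp macrophage list, with Spic and the C1q genes, summed to 65.1 to 97.2 CPM in severe and 29.8 to 52.3 CPM in mild spleens, on few UMIs. The MHC class I presentation list was lower, at 6686 to 8242 CPM against 8601.5 to 8949.5 CPM. Higher were the glycolysis and hypoxia list, at 670 to 872 CPM against 463 to 491 CPM, and the list of inflammatory cytokines and receptors. The latter summed to 1001 to 1224 CPM in severe and 807 to 898 CPM in mild spleens. The mast cell and basophil list was at 31.5, 241, and 391 CPM in S1, S2, and S3 and at 24.8, 14.9, and 99.2 CPM in S5, S6, and S8, so the groups overlapped.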
